A study of Mus musculus with 11 samples.

Results

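The 4 genes of fatty acid desaturation and elongation described here are Scd1, Fads1, Ptplad1 and Tecr, and they were examined in RNA-seq data of mouse striatal cells in which the transcription factor NF-Y had been knocked down. They were chosen by symbol and are 4 of the 1767 genes in the deposited table. Each adult male C57BL/6 mouse, wild type and 6 weeks old, was injected in both striata with an adeno-associated virus (AAV) that makes EmGFP and artificial microRNAs from the CAG promoter, which is active in most cell types. Controls received AAV-EmGFP-miR-NT2, a non-targeting microRNA (6 samples), and the knockdown group AAV-EmGFP-miR-YAYC, with microRNAs against NF-YA and NF-YC (5 samples). At 3 weeks after injection the striata were dissociated with papain and EmGFP-positive, propidium iodide-negative cells were sorted. Every sample, controls included, thus holds virus-infected cells that survived sorting. Each sample is treated here as 1 mouse. The deposited table is wider than the authors' final list, from which they left out genes with low counts or expressed mainly in non-neuronal cells. It lists only genes with a p-value under 0.05 between these groups in the authors' own comparison. All tests of the knockdown therefore describe listed genes, and they do not stand as independent evidence that any of the 4 genes differs.

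Long-chain fatty acids are remodelled in the endoplasmic reticulum by desaturases, which insert double bonds, and by a cycle that lengthens the chain. Scd1, a stearoyl-CoA desaturase, makes monounsaturated fatty acids such as oleate from saturated ones. Fads1, a front-end desaturase, acts late in the synthesis of polyunsaturated fatty acids such as arachidonate. In the elongation cycle a condensing enzyme of the Elovl family adds the new carbons, a reductase and a dehydratase follow, and an enoyl reductase completes the turn. Ptplad1, now named Hacd3, belongs to the family of the dehydratases, and Tecr is the enoyl reductase. NF-Y is a complex of NF-YA, NF-YB and NF-YC that binds the sequence CCAAT, which is common in promoters.

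Because NF-Y recognises CCAAT, the bases before the start of the members were read from the RefSeq promoter table (build GRCm38.p6), which holds Ptplad1 and Tecr. Scd1 and Fads1 have no entry. The 250 bases before the start of Ptplad1 lie at chr9:65021718-65021967 and those of Tecr at chr8:83594492-83594741, both on the minus strand. They are shown 5′ to 3′ with CCAAT, or its complement ATTGG, in capitals.
Ptplad1: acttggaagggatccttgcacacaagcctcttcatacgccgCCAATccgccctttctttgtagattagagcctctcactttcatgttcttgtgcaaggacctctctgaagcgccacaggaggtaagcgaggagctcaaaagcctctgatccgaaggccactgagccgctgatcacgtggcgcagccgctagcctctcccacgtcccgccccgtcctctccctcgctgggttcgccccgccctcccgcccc
Tecr: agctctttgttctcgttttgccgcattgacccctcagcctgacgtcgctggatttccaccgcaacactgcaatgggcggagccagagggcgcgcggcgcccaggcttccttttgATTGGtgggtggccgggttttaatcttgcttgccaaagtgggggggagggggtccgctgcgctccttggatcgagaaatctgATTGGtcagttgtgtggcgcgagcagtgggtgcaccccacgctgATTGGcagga
Ptplad1 held 1 CCAAT, 209 to 205 bases before the start. Tecr held 3, all read as ATTGG, at 136 to 132, 54 to 50 and 10 to 6 bases before the start. Of all 32851 promoters in that table, searched on both strands over the same length, 33.8% held 1 or more matches and 2.79% held 3 or more. Having 1 match is thus common, whereas the 3 matches of Tecr are found in few promoters. A match is a stretch of letters and shows no binding.

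In control cells Tecr had the highest level of the 4 genes and Scd1 the lowest. Per kilobase of the longest annotated transcript, the normalized count of the controls was 5113 ± 681 for Tecr, 1121 ± 139.5 for Ptplad1, 965 ± 188 for Fads1 and 433 ± 132 for Scd1 (SD, n = 6). The ranges of Ptplad1 (932 to 1293) and Fads1 (691 to 1163) overlapped, and the order of these neighbours within samples was not tested. Tecr lay above and Scd1 below both in every control sample. The knockdown samples showed the same order at its ends, with 4397 ± 446 for Tecr and 247 ± 46.9 for Scd1 (SD, n = 5). Ptplad1 at 772 ± 51.2 and Fads1 at 771 ± 142 were level there. Averaged over all samples, the level of Tecr per kilobase was at percentile 98.8 of the 1609 listed genes with an annotated length, those of Ptplad1 and Fads1 at 90.7 and 89.4, and that of Scd1 at 72.5.

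The first comparison asked how the 4 genes differed between knockdown and control. All 4 had lower means in the knockdown, as had 57.5% of the listed genes. Scd1 fell by 43.0% and Ptplad1 by 31.2% and both passed the test, whereas Fads1 (20.1% lower) and Tecr (14.0% lower) passed it with the authors' own scaling of the samples but not with TMM. The test was edgeR's quasi-likelihood test on the estimated counts with TMM normalization, which scales each sample by a trimmed mean over genes, and a gene was called at a Benjamini-Hochberg adjusted p-value under 0.05 over the 1767 genes. With it 2 of the 4 genes were called lower, beside 21.3% of all listed genes (60.3% were called in either direction). With the authors' scaling all 4 were called lower, beside 47.3% of the listed genes (79.5% in either direction). The authors' scaling shifts the median log2 fold change of the listed genes from −0.13 to −0.27, and each of the 4 genes moves down by about the same amount with it. TMM was computed from the 1767 listed genes alone, all kept at a p-value under 0.05. Its premise that most genes do not differ cannot be taken for granted there. Which scaling is nearer the true levels was not tested. None of the 4 changed direction under either scaling.

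**Figure D1:**
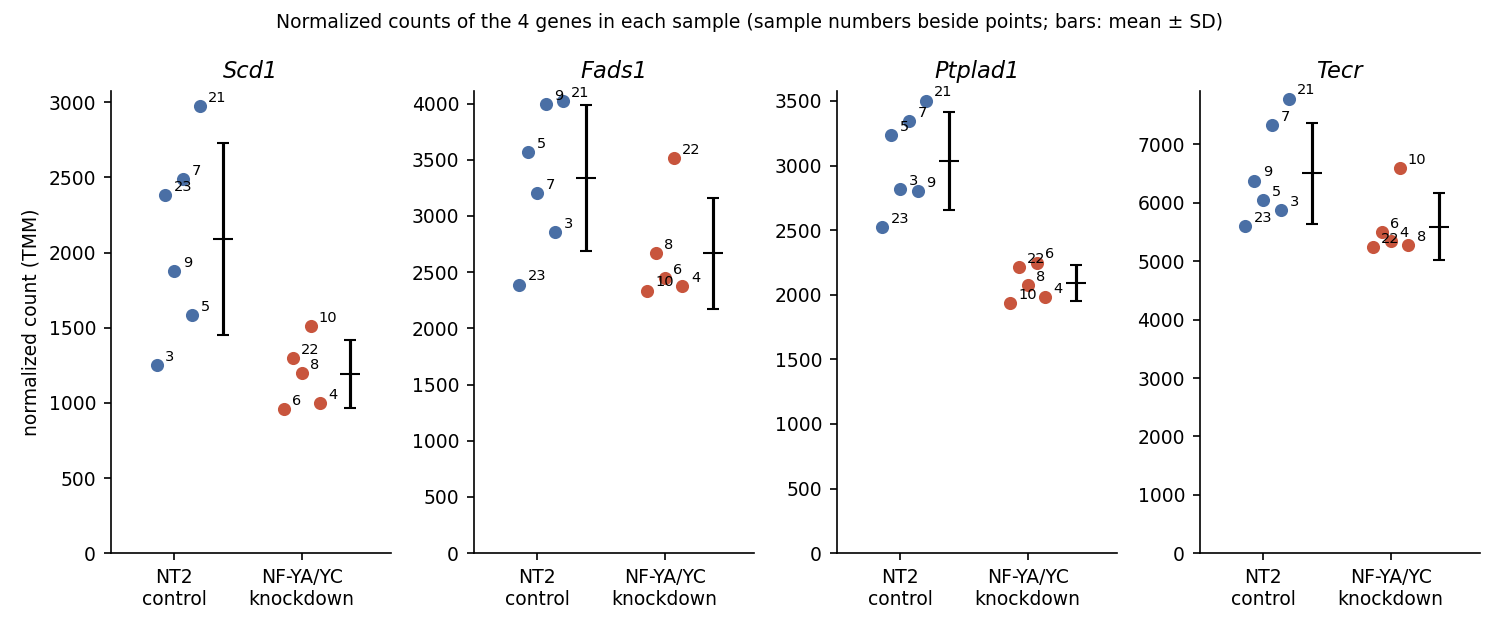
Normalized counts (TMM, linear axis from 0) of Scd1, Fads1, Ptplad1 and Tecr in 6 control (NT2) and 5 knockdown (NF-YA/YC) samples, each point 1 sample with its number and each bar the mean ± SD. The groups are separate for Ptplad1, with controls from 2526 and knockdown samples up to 2249, and overlap for the other genes.

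Scd1 (gene ID 20249, mm9 chr19:44468940-44482199, minus strand) showed the greatest fall of the 4 under both scalings. Its normalized count in the controls had a lowest value of 1252, a median of 2127 and a highest value of 2977. In knockdown samples 4, 6, 8, 10 and 22 it was 1001, 957, 1197, 1512 and 1298. Control 3, at 1252, fell among the knockdown samples, and the other 5 controls lay above all of them. The means were 2093 ± 639 (SD, n = 6) and 1193 ± 226 (SD, n = 5), a log2 fold change of −0.81 (SE 0.21, edgeR adjusted p = 0.015), and −0.96 (SE 0.23, adjusted p = 0.013) with the authors' scaling. The exact permutation test of the log2 values gave p = 0.013 under both scalings. Scd1 was also the most variable of the 4 among controls, with a coefficient of variation of 30.5%. Its counts were fractional in all 11 samples, and it has close paralogs in the mouse (Scd2 to Scd4), so how reads shared with them were divided cannot be seen from the table.

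Fads1 (gene ID 76267, mm9 chr19:10257378-10271362, plus strand), on the same chromosome, differed less. Its normalized count in the controls had a lowest value of 2389, a median of 3387 and a highest value of 4023. Knockdown samples 4, 6, 8, 10 and 22 had 2374, 2444, 2668, 2335 and 3515. Control 23 lay among the knockdown samples, and knockdown sample 22 lay above 3 controls. The means were 3340 ± 650 (SD, n = 6) and 2667 ± 491 (SD, n = 5), a log2 fold change of −0.32 (SE 0.16, edgeR adjusted p = 0.082, exact permutation p = 0.087). Without control 23 the value was −0.40 (edgeR adjusted p = 0.037), and without knockdown sample 22 it was −0.44 (edgeR adjusted p = 0.036). With the authors' scaling it was −0.46 (SE 0.17, edgeR adjusted p = 0.033), a call that held in 4 of the 11 fits that each left out 1 sample. All 11 counts of Fads1 were whole, whereas those of Ptplad1 were whole in 4 samples and those of Tecr in 0.

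Ptplad1 (gene ID 57874, mm9 chr9:64834790-64869524, minus strand) was the one gene of the 4 whose groups did not overlap. Its normalized count in the controls had a lowest value of 2526, a median of 3026 and a highest value of 3502. In knockdown samples 4, 6, 8, 10 and 22 it was 1980, 2249, 2076, 1933 and 2212. Every knockdown sample lay below every control under both scalings, as did those of 2.43% of the listed genes with TMM and 6.11% with the authors' scaling. The means were 3037 ± 378 (SD, n = 6) and 2090 ± 139 (SD, n = 5), a log2 fold change of −0.54 (SE 0.10, edgeR adjusted p = 0.0048), and −0.68 (SE 0.11, edgeR adjusted p = 0.0035) with the authors' scaling. The exact permutation p was 0.0043, the smallest that 6 against 5 samples allow. It was also the least variable of the 4, with a coefficient of variation of 12.4% in controls and 6.63% in the knockdown. The 1 CCAAT shown above lies in the promoter of this gene.

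Tecr (gene ID 106529, mm9 chr8:86095597-86118390, minus strand), with the highest level and the 3 CCAAT matches shown above, differed least of the 4 under both scalings. Its normalized count in the controls had a lowest value of 5606, a median of 6218 and a highest value of 7786. Knockdown samples 4, 6, 8, 10 and 22 had 5348, 5495, 5282, 6594 and 5245. Knockdown sample 10 lay above 4 controls, and the other 4 knockdown samples lay below every control. The means were 6504 ± 866 (SD, n = 6) and 5593 ± 568 (SD, n = 5), a log2 fold change of −0.22 (SE 0.11, edgeR adjusted p = 0.10, exact permutation p = 0.065). With the authors' scaling it was −0.36 (SE 0.13, edgeR adjusted p = 0.030), and the call held in 5 of the 11 fits that each left out 1 sample. Tecr overlaps an antisense gene, D830024N08Rik, a sense intronic gene and a pseudogene, and the kit does not mark strand, so their reads cannot be told apart from those of Tecr. Fads1 likewise overlaps a microRNA gene, Mir6993, on its own strand, and Scd1 and Ptplad1 overlap no annotated gene.

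The sample numbers in the labels run from 3 to 10 and from 21 to 23, and the labels do not say what the numbers mark. Among the 8 samples numbered 3 to 10 alone (4 against 4, smallest exact permutation p 0.029), the log2 difference was −0.60 for Scd1 (exact permutation p = 0.057), −0.46 for Fads1 (0.029), −0.56 for Ptplad1 (0.029) and −0.17 for Tecr (0.14). Fads1 as well as Ptplad1 was fully separated between the groups there, since control 23 and knockdown sample 22 are not among these samples. The second run of numbers holds 2 controls and 1 knockdown sample, too few for a value of its own.

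The next comparison asked whether the 4 genes differed in the size of their change. The log2 ratio of 2 genes within a sample was used, which no scaling of the sample can move, in all 6 pairs. Ptplad1 fell relative to Tecr. The log2 ratio of Ptplad1 to Tecr was −1.10 ± 0.10 in controls (SD, n = 6, −1.19 to −0.90) and −1.42 ± 0.21 in the knockdown (SD, n = 5, −1.77 to −1.25), and the groups did not overlap. The difference was −0.32 (95% interval −0.57 to −0.13, exact permutation p = 0.0043, adjusted over the 6 pairs 0.026). Scd1 relative to Tecr differed by −0.56 (95% interval −0.97 to −0.13, exact permutation p = 0.026, adjusted p = 0.078), which did not pass after adjustment. Without control 3 it did, at −0.67 (exact permutation, adjusted p = 0.024).

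**Figure D2:**
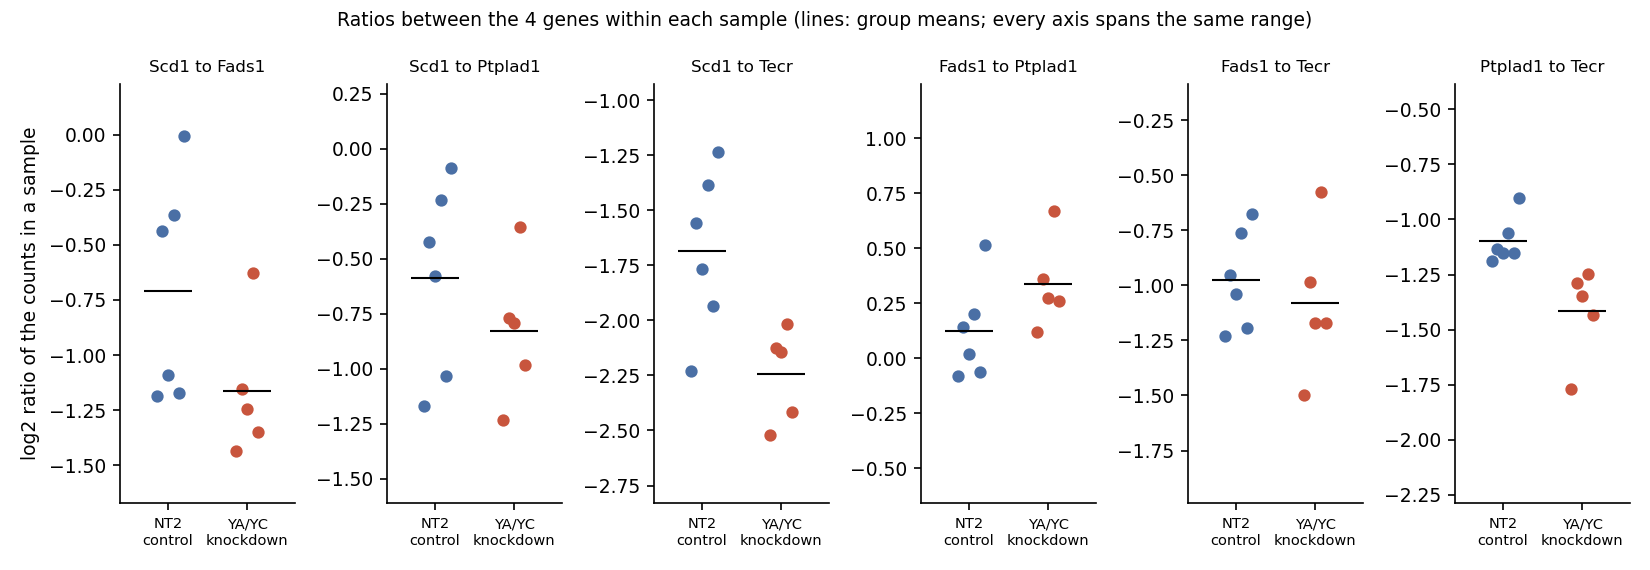
Log2 ratio of the counts of 2 genes within each sample for the 6 pairs of Scd1, Fads1, Ptplad1 and Tecr, with blue points for 6 controls and red points for 5 knockdown samples and lines for group means. The ratio of Ptplad1 to Tecr separates the groups, at −1.19 or more in controls and −1.25 or less in the knockdown, and the other 5 pairs overlap.

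The other 4 pairs were not distinguishable at this sample size, and their intervals show what differences remain possible. Scd1 relative to Fads1 differed by −0.45 (95% interval −1.08 to 0.15, exact permutation p = 0.10, adjusted p = 0.20). Scd1 relative to Ptplad1 differed by −0.24 (95% interval −0.76 to 0.30, exact permutation p = 0.32, adjusted p = 0.39). Fads1 relative to Ptplad1 differed by 0.21 (95% interval −0.09 to 0.50, exact permutation p = 0.13, adjusted p = 0.20), and Fads1 relative to Tecr by −0.10 (95% interval −0.48 to 0.29, exact permutation p = 0.55). The intervals were widest for the pairs with Scd1, the gene with the most variable controls.

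The markers of glia in the table, mostly of astrocytes, were also lower in the knockdown samples. Of 44 markers of astrocytes, oligodendrocytes and microglia, 8 are in the table, and all 8 had lower means in the knockdown (log2 fold changes −1.54 to −0.15). They are 6 of 16 astrocyte markers, 1 of 15 oligodendrocyte markers (Ugt8a) and 1 of 13 microglia markers (P2ry12, not called). With edgeR 6 of the 8 were called lower, 5 of them astrocyte markers, beside 21.3% of all listed genes (57.5% had lower means). These 8 had been kept at a p-value under 0.05 between these groups, and the markers outside the table could not be examined. The summed normalized count of the 8 was 56251 to 120841 in controls and 48209.8 to 61782 in the knockdown, and none was at 0. Of 9 vascular markers 6 are in the table, kept in the same way, and 4 of them were called lower, beside the same 21.3%. Their sums were 6456 to 10469.7 in controls and 4314 to 7684 in the knockdown. None of 22 markers of neurons and striatal projection neurons is in the table, so the neuronal content could not be examined. In bulk samples, fewer cells of a type and less RNA per cell cannot be told apart.

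The 4 genes were next set against the glial markers between mice of the same group. A glial marker score, the mean of the centred log2 values of the 8 markers, was 0.37 ± 0.54 in controls (SD, n = 6) and −0.44 ± 0.31 in the knockdown (SD, n = 5). It is mainly an astrocyte score, since 6 of the 8 are astrocyte markers. After the group means were subtracted, Pearson's r with this score over 11 samples was 0.69 for Scd1, 0.64 for Fads1, 0.66 for Ptplad1 and 0.61 for Tecr, and Spearman's rho was 0.52, 0.72, 0.53 and 0.45. With an exact permutation within groups and adjustment over 14 relations, the adjusted p was 0.14 for each of the 4 Pearson values. Without controls 3 and 21, the samples farthest out on the score, r was 0.24, 0.55, 0.55 and 0.36, so for Scd1 the relation rested largely on those samples. Within the samples numbered 3 to 10, r was 0.71, 0.48, 0.47 and 0.52 (n = 8).

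**Figure D3:**
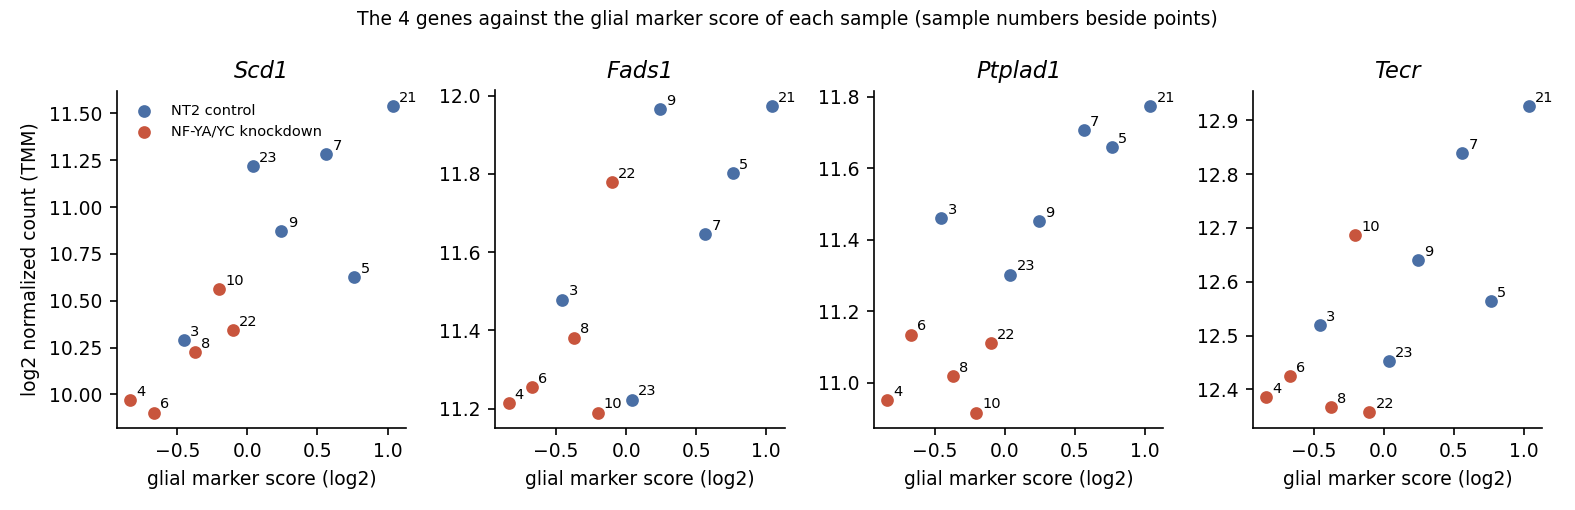
Log2 normalized count (TMM) of Scd1, Fads1, Ptplad1 and Tecr against the glial marker score of the same sample, with blue points for 6 controls and red points for 5 knockdown samples, numbered. The score is 0.37 ± 0.54 in controls and −0.44 ± 0.31 in the knockdown, and r within groups is 0.69 for Scd1, 0.64 for Fads1, 0.66 for Ptplad1 and 0.61 for Tecr.

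With the score added to the edgeR fit as a covariate, none of the 4 genes was called (1 had an unadjusted p under 0.05, Ptplad1), and 0.905% of the listed genes were called lower. Ptplad1 had the largest difference of the 4 in that fit, with a log2 fold change of −0.36 (SE 0.12, edgeR adjusted p = 0.092). Scd1 went to −0.31 (SE 0.22, edgeR adjusted p = 0.33). Fads1 was at −0.01 (SE 0.18) and Tecr at −0.03 (SE 0.14), smaller than their standard errors (edgeR adjusted p = 0.95 and 0.89). The 8 markers are listed genes, kept for a p-value under 0.05 between these same groups, in either direction. That each marker differs is thus set by selection, whereas their common direction is not. Adjusting for the score can take out part of the group difference of listed genes in general. With it 16 listed genes were called lower instead of 377, and 66 higher instead of 689. The fit cannot separate the glial markers from the knockdown, and their part in the 4 differences was not tested. Control 3, with a score of −0.45, was the control with the lowest score, and its normalized counts were 1252 for Scd1, 2854 for Fads1, 2816 for Ptplad1 and 5869.8 for Tecr.

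**Figure D4:**
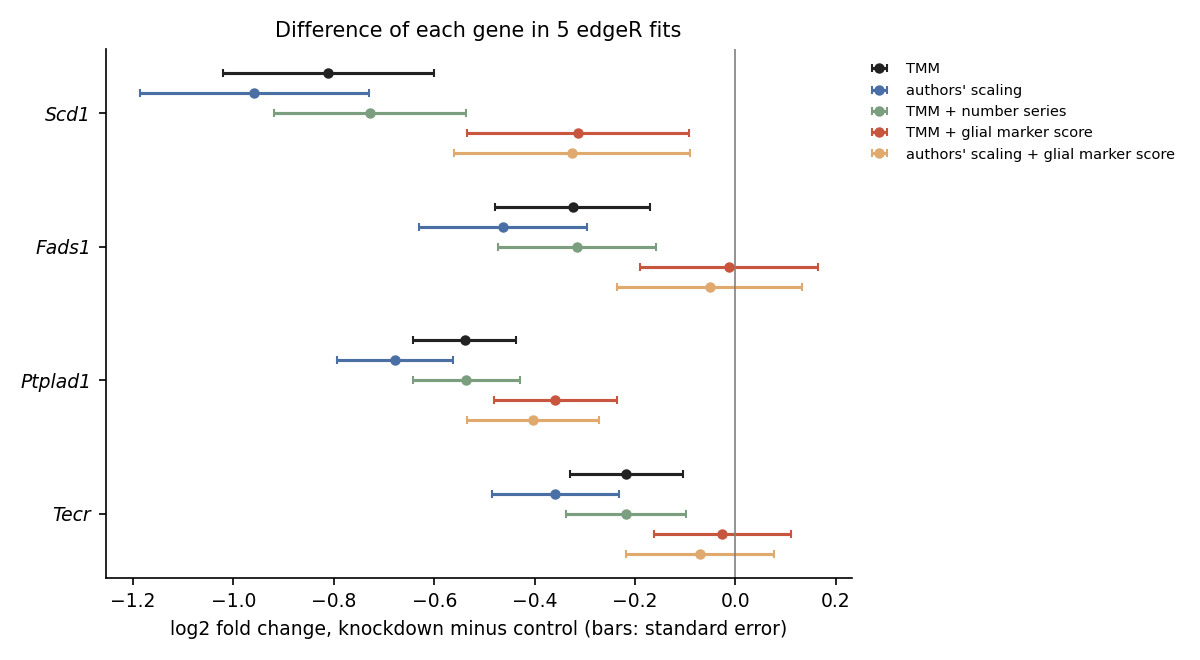
Log2 fold change, knockdown minus control, with its standard error for Scd1, Fads1, Ptplad1 and Tecr in 5 edgeR fits to the 11 samples (TMM, the authors' scaling, TMM with the number series, and either scaling adjusted for the glial marker score). Scd1 and Ptplad1 stay below 0 in every fit, and Fads1 and Tecr lie close to 0 with the glial marker score, at −0.01 and −0.03 with TMM. The markers of the score were themselves kept for a difference between these groups.

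The genes whose values followed each of the 4 most closely between mice of a group were looked up among the 1321 listed genes with a mean normalized count of 100 or more, by Pearson's r over 11 samples after the group means were subtracted. For Scd1 they were Fgfr2 (r = 0.93), Daam2 (0.92) and Myo6 (0.91). For Fads1 they were Bmpr1b (0.87), Slc30a10 (0.86) and Adhfe1 (0.86), and for Tecr they were Prnp (0.90), Hepacam (0.89) and Fam19a5 (0.86). The closest genes to Ptplad1 followed it less tightly. They were Aven (r = 0.80), Srm (0.77) and Slc1a3 (0.77), the last of which is an astrocyte glutamate transporter and 1 of the 8 glial markers. These are the highest of many correlations and are given as descriptions.

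Among the 4 genes themselves, the within-group r was highest for Scd1 with Tecr (0.65) and Fads1 with Ptplad1 (0.63), and lowest for Scd1 with Fads1 (0.18) and Scd1 with Ptplad1 (0.20). The 2 desaturases were thus not seen to vary together between mice. None of the 6 pairs passed an exact permutation test within groups after adjustment over the 14 relations (lowest adjusted p 0.14), and Spearman's rho was 0.59, 0.58, 0.17 and 0.09 in the same order. Without the 2 samples farthest out r was 0.45, 0.41, −0.23 and −0.28, and within the samples numbered 3 to 10 it was 0.88, 0.04, 0.23 and 0.16 (n = 8). The relation of Fads1 with Ptplad1 was therefore not seen within that run of numbers.

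Nfyc, a targeted gene, is in the table. Its normalized count in the controls had a lowest value of 733, a median of 898 and a highest value of 1206, and in the knockdown it ranged from 603 to 975. The groups overlapped, and the log2 fold change was −0.19 (SE 0.15, edgeR adjusted p = 0.26, exact permutation p = 0.27), or −0.32 (edgeR adjusted p = 0.053) with the authors' scaling. With the glial score as a covariate it was −0.53 (SE 0.17, edgeR adjusted p = 0.080), and −0.61 (SE 0.18, edgeR adjusted p = 0.074) with the authors' scaling as well. Nfya was not analysed here. Between mice of a group, Scd1 was lower where Nfyc was higher, with r = −0.88 over 11 samples (exact permutation within groups p = 0.00066, adjusted over the 14 relations 0.0092). Spearman's rho was −0.81 (exact permutation p = 0.0046, adjusted p = 0.064). Without knockdown sample 10 and control 21 r was −0.83, within the samples numbered 3 to 10 it was −0.82 (n = 8), and with the authors' scaling it was −0.80. The other 3 genes gave r of −0.09 for Fads1, −0.17 for Ptplad1 and −0.59 for Tecr, none of which passed (exact permutation, adjusted p = 0.80, 0.70 and 0.14). Scd1 had r = 0.69 with the glial marker score, and the relation of Nfyc with that score was not computed. Whether Scd1 and Nfyc are related apart from the score was not tested.

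Other genes of fatty acid metabolism were read from 6 lists with 124 names, of which 16 are in the table, the 4 described above included. Of the other 12, edgeR called 6 lower and 3 higher and did not call 3, beside 21.3% lower and 39.0% higher over all listed genes. With the authors' scaling 9 were called lower and 3 higher, beside 47.3% and 32.2%. In the elongation cycle the condensing enzyme Elovl5, which acts on polyunsaturated fatty acids, fell from 5443 ± 936 to 4365 ± 396 (log2 fold change −0.32, SE 0.12, edgeR adjusted p = 0.044), so that its change was nearer in size to that of Fads1 and Tecr than to that of Scd1. Beside the desaturases, Degs2, which acts on sphingolipids, had −0.36 (edgeR adjusted p = 0.11), and Cyb5b, a cytochrome b5 of the outer mitochondrial membrane, −0.24 (adjusted p = 0.071).

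The 2 acyl-CoA synthetases in the table fell, Acsl3 with a log2 fold change of −0.78 and Acsbg1 with −1.33 (edgeR adjusted p = 0.020 and 0.022). Insig1 and Scap, which govern the activation of the lipogenic factor SREBP, fell too, with −0.37 and −0.25 (edgeR adjusted p = 0.018 and 0.047). In fatty acid breakdown the hydratase Echs1 fell (−0.39, edgeR adjusted p = 0.023), Cpt1a had −0.21 (adjusted p = 0.10), and Cpt1b rose by 1.18 from a low mean of 48.2 normalized counts (adjusted p = 0.021). Slc25a1, the citrate carrier that feeds fatty acid synthesis, rose from 1232 ± 179 to 1666 ± 85.1 (log2 fold change 0.44, SE 0.11, edgeR adjusted p = 0.014), and its groups did not overlap. Fabp5, a fatty acid binding protein, rose by 0.87 (SE 0.20, edgeR adjusted p = 0.011). The genes called were thus both lower and higher. With the glial score as a covariate none of the other 12 genes was called by edgeR (4 had an unadjusted p under 0.05). Few listed genes of any kind were called in that fit, 16 lower and 66 higher of 1767. Elovl5 was at −0.12 (edgeR adjusted p = 0.58), Insig1 at −0.14 (0.39), Scap at −0.17 (0.38), Acsl3 at 0.02 (0.90) and Acsbg1 at 0.05 (0.88). Slc25a1 was at 0.40 (0.12), Fabp5 at 0.44 (0.19), Cpt1b at 0.91 (0.26) and Echs1 at −0.55 (0.062).

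**Figure D5:**
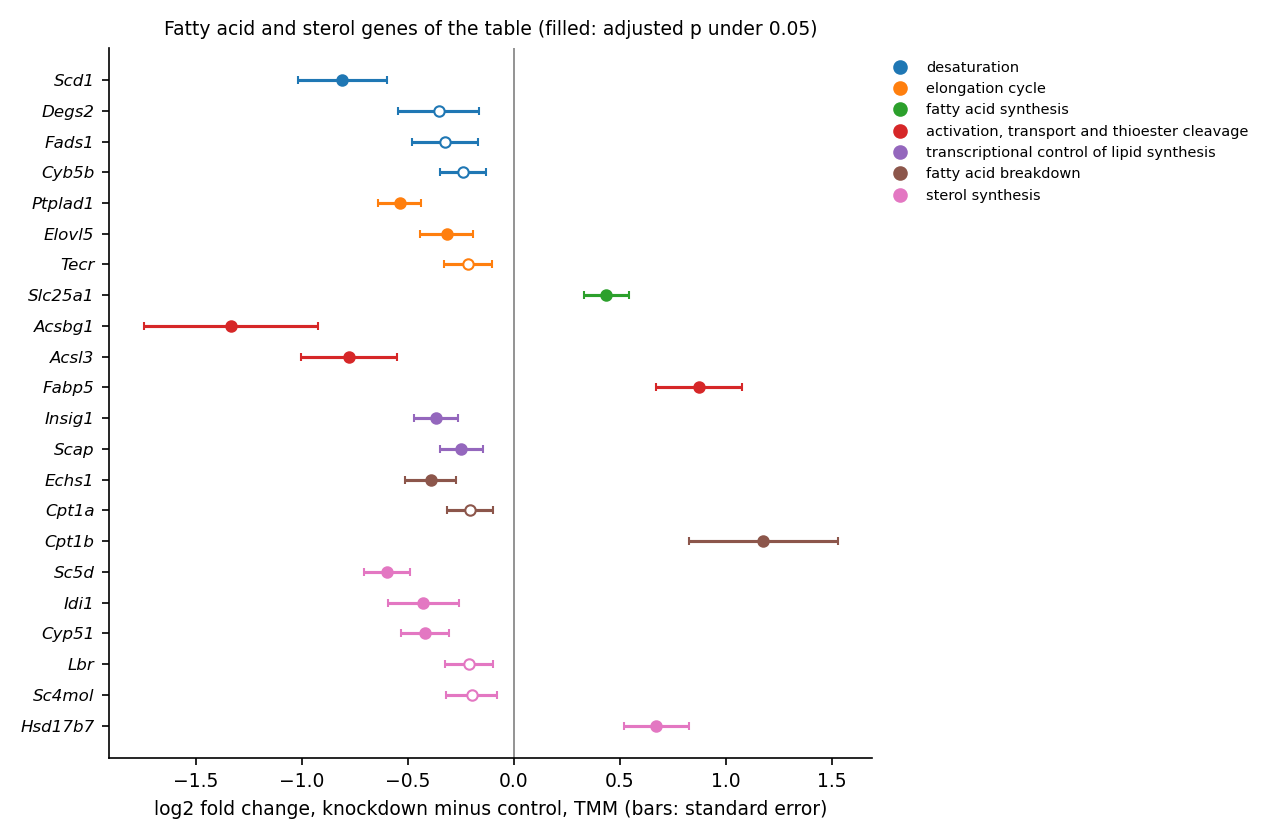
Log2 fold change, knockdown minus control (TMM), with its standard error for the 16 fatty acid genes and 6 sterol genes, coloured by list, with filled circles for genes called by edgeR. All 7 desaturation and elongation genes lie below 0, from −0.81 (Scd1) to −0.22 (Tecr), as do 57.5% of all listed genes. Of these 7, 3 were called lower, beside 21.3% of all listed genes. Cpt1b, Fabp5, Hsd17b7 and Slc25a1 lie above 0.

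Sterol synthesis shares the control by SREBP with Scd1 and Fads1. Of the 6 genes of it described here, edgeR called 3 lower (Sc5d, Idi1 and Cyp51, with log2 fold changes of −0.60, −0.43 and −0.42) and Hsd17b7 higher (0.67), and did not call Lbr (−0.21) and Sc4mol (−0.20), beside 60.3% of the listed genes called in either direction. With the glial score as a covariate none of the 6 was called by edgeR (2 had an unadjusted p under 0.05), beside 16 listed genes called lower and 66 higher of 1767. Sc5d was at −0.47 (edgeR adjusted p = 0.070), Hsd17b7 at 0.61 (0.10), Cyp51 at −0.34 (0.18) and Idi1 at −0.13 (0.64). Of these 6 and the 12 other fatty acid genes, 18 in all, 16 have a promoter entry. Of these, 13 held 1 or more CCAAT matches within the same length, including Elovl5 with 2, beside 33.8% of all 32851 promoters. The share over all listed genes was not computed, so the count is not read as a trait of these genes. Sc4mol and Hsd17b7 held 3 matches, as did Tecr. A rise was seen among genes with matches as well: Slc25a1 has 1 and Hsd17b7 has 3.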

How the data were processed

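RNA was measured in 11 samples of sorted striatal cells by single-read sequencing of SMARTer Ultra Low and Nextera XT libraries. The authors made the estimated counts per gene in Strand NGS (build mm9 per the labels), and deposited them unscaled: 52.9% are whole within 0.001. Also deposited were log2 values, scaled by a factor per sample and centred on the median of the gene, from which the authors' factors were recovered (0.66 to 1.27). The authors' deposited p-values, all under 0.05, were read only to see how the table had been selected, and their fold changes were not used. Listed counts sum to 1581757 to 3141324 per sample, which is not the library depth. The lowest count of Scd1, 805, has a read-counting error of 3.53%, which does not cover the sampling of molecules before amplification. No pair of samples within a group agreed within counting noise.

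Counts were rounded and fitted over all 1767 genes with edgeR 4.0.16 (R 4.3.3), without covariates, after a check on simulated counts. Standard errors were derived from the F statistic, and p-values were adjusted by Benjamini-Hochberg. Normalized counts are counts divided by the TMM factor. Permutation tests are two-sided, on log2 of the normalized count plus 0.5, and intervals invert them. Gene lengths and overlaps are from GENCODE M21. The genes named are the 4 members, the genes of the lists and marker sets in the table, Nfyc, and the 3 genes closest to each member. The members and lists were chosen with earlier results of these data known. An item of the sterol list is not reported here. Alternatives were other scalings, DESeq2 1.42.0, a count minimum, the number series or the glial score as a covariate, and leaving out each sample.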

Additional observations from a re-analysis of the deposited data

Results flagged for a closer look

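In 2 of the 22 groups of values examined, 1 sample stood far from the others of its group by Dixon's criterion, which chance meets in about 1 in 20 groups. Fads1 had 3515 normalized counts in knockdown sample 22, with a gap to the next sample of 0.72 of the range of the group. Tecr had 6594 normalized counts in knockdown sample 10, with a gap of 0.82 of the range. Without sample 22, Fads1 passed the edgeR test (log2 fold change −0.44, adjusted p = 0.036). Without sample 10, Tecr did not (−0.29, adjusted p = 0.057).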

How the results depend on the processing

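No direction of the 4 genes was reversed in any alternative run. The authors' scaling made the number of members called lower 4, with −0.46 for Fads1 and −0.36 for Tecr (exact permutation differences −0.45, p = 0.039, and −0.35, p = 0.013), and 836 listed genes were called lower instead of 377. With adjustment for the glial marker score 0 members were called, with −0.31 for Scd1 and −0.36 for Ptplad1, and 16 listed genes were lower and 66 higher instead of 689. At an unadjusted p under 0.05, 1 member (Ptplad1) was lower in that edgeR fit. The score with the authors' scaling, chosen after seeing the data, gave 0 members, −0.33 and −0.40, and 6 lower and 21 higher. Keeping only genes with a highest count of 200 or more left 180 lower. In the samples numbered 3 to 10 the exact permutation test gave −0.60 for Scd1 (p = 0.057) and −0.46 for Fads1 (p = 0.029), and the ratio of Ptplad1 to Tecr differed by −0.39 (adjusted p = 0.17, the smallest a single pair can reach there). DESeq2, its size factors, the robust fit and the number series changed no call of the 4 genes.

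Leaving out 1 sample in turn gave −0.92 to −0.68 for Scd1, −0.44 to −0.25 for Fads1, −0.59 to −0.49 for Ptplad1 and −0.29 to −0.16 for Tecr, and with the authors' scaling, chosen after seeing the data, −1.08 to −0.81, −0.59 to −0.38, −0.73 to −0.62 and −0.42 to −0.28. With TMM the members called lower numbered 2 to 3. The ratio of Ptplad1 to Tecr ranged from −0.36 to −0.23 (adjusted p 0.024 to 0.057), and missed the threshold without any 1 knockdown sample, where 6 against 4 samples cannot go below 0.057 for a single pair. The ratio of Scd1 to Tecr ranged from −0.67 to −0.47. Listed genes called lower with TMM numbered 208 to 441, with 208 to 249 without controls 5, 7 or 21 or knockdown samples 4, 6 or 8, and higher 511 to 680. No paired analysis was possible because the groups share no sample number.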
